A study of Sus scrofa domesticus with 28 samples.

Results

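Late sham-treated scar was compared with early sham-treated scar in red Duroc pigs, whose deep wounds heal with raised scar tissue. The comparison takes every biopsy labelled late sham (4 arrays) and every biopsy labelled early sham (8 arrays), 12 of the 28 arrays of the series. All came from the skin of 2 juvenile castrated male pigs, numbered 49 and 50. The early group held 4 hyperpigmented (hyper) and 4 hypopigmented (hypo) scar biopsies, 1 from each side (L or R) of each animal. The late group held 1 hyper and 1 hypo biopsy per animal, all from side L, so side and phase are partly confounded. The labels set sham against pressure and do not describe either treatment. The titles carry a number of unstated unit that was equal in all 8 early biopsies, equal in 3 late biopsies and higher in the late hypo biopsy of animal 49. Codes a1 and a3 in the titles follow pigmentation, so the effects of code and pigmentation cannot be told apart. Pigmentation was averaged equally in both phases, and the other biopsies of the series (control skin, mid scar and pressure-treated scar) served to estimate the spread and are quoted as levels.

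Skin scars form when fibroblasts fill a wound with collagen, proteoglycans and glycoproteins, which are folded and modified in the endoplasmic reticulum, secreted, and crosslinked outside the cell. As a scar matures, matrix production usually declines and the matrix is remodelled by proteases. The epidermis regrows over it, and the immune cells of the scar change in number and state. Red Duroc scars are used as a model of human hypertrophic scar, in which this decline is slow.

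Each biopsy was labelled with Cy5 and hybridised beside a Cy3-labelled universal pig reference RNA. A level below is the log2 ratio of biopsy to reference on 1 array, so levels of different genes are not comparable with each other. A difference is the late mean minus the early mean on that log2 scale ± its standard error (SE) from limma, with Benjamini-Hochberg adjusted p over 18768 features. "Rose" and "fell" are used where the adjusted p was under 0.05. In a biopsy, fewer cells of a type and less RNA per cell cannot be told apart. Since only 2 pigs were sampled, p reflects biopsy-to-biopsy spread within them and not variation among pigs.

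In all, 3737 features passed the threshold (19.9% of those tested), 1812 higher (9.65%) and 1925 lower (10.3%) in late scar. Of them 722 differed at least 2-fold, 219 higher and 503 lower. The median difference of all features was 0.03. Of the 2606 features with a gene symbol 476 passed, 216 higher and 260 lower. The 4 late and the 8 early values did not overlap for 1850 features (9.86%).

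The count of calls depended on the processing and on which arrays were used. The share of probes whose Cy5 signal passed the scanner program's background test was 31.4 to 43.3% on late and 44.9 to 55.4% on early arrays, without overlap between the groups. With this share as a covariate 753 features passed. Among the 8977 features well above background on all 12 arrays 2146 passed, a higher share than the 19.9% of all features. Against the 4 early arrays of side L alone 487 passed, and with the 7 slides as a fixed block 1073 passed. Slide 7 alone held both groups (1 early and 2 late arrays, which are part of the comparison itself), and within it C1QTNF3 differed by -4.77, IFIT1 by 1.53 and CCL27 by 3.88, with no test. Without a cap on local background, 11 features passed. From the scanner program's own processed signals 3918 passed, of which 31.8% were higher, against 48.5% higher here, and the median of all features was then -0.08. Of the 12 fits that left out 1 array, 2 moved the count by over 1.5 times: 2148 features passed without late hyper 50L and 2336 without late hypo 50L. The part of detection, side and slide in each result below was not tested beyond these fits.

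The labelled tissue was checked against its markers. Of the fibroblast markers COL1A2, DCN and LUM were measured under their symbols. COL1A2 had a median of 6.26 in early scar, and its 4 late values ran from 2.88 to 5.66. No feature carried the symbols of the keratinocyte markers KRT5, KRT14, KRT1 or KRT10. The list of differentiated keratinocyte genes averaged -0.89 to 1.13 per array in early and 0.32 to 1.55 in late scar, against 2.08 to 2.3 in control skin. Its lowest early array was hypo 50L. Late values are quoted in 1 order throughout: hyper 49, hyper 50, hypo 49, hypo 50.

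The largest falls among features with a symbol were those of C1QTNF3 and PTN. C1QTNF3, a secreted protein of the C1q and TNF family, had early levels of 3.68 (lowest), 5.89 (median) and 6.97 (highest) and late levels of 1.65, 2.7, 0.39 and 1.99. It fell by 4.04 ± 0.71 on the log2 scale (16.4-fold, adjusted p = 0.00126). PTN, the heparin-binding growth factor pleiotrophin, had early levels of 2.66, 3.58 and 4.01 and late levels of -0.38, 1.97, -1.05 and 1.27. Its difference was -3.04 ± 0.59 (8.24-fold lower, adjusted p = 0.00244). For both genes every late array lay below every early array, and the late animal 49 arrays were the lowest. PHACTR3, a phosphatase and actin regulator, fell from 3.14, 3.97 and 4.73 to 0.15, 2.43, 0.6 and 1.83 (-2.75 ± 0.55, adjusted p = 0.00276). ANGPTL2, an angiopoietin-like secreted protein, fell from 2.67, 3.39 and 3.96 to 1.04, 1.43, 0.34 and 0.32 (-2.63 ± 0.44, adjusted p = 9.54e-04), and was well above background on 2 of 4 late arrays. CDH11, a cadherin that joins mesenchymal cells, fell from 3.0, 3.48 and 3.95 to 1.26, 1.98, 0.18 and 1.52 (-2.24 ± 0.35, adjusted p = 6.00e-04). The groups overlapped for none of these 3 genes. For PHACTR3 and CDH11, too, the late animal 49 arrays lay below the late animal 50 arrays.

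Of the 15 measured members of the list for fibroblast surface and state, 6 fell and 1 rose, with a median of -0.77. The share that fell was above the 10.3% of all features. The other 2 that fell were SGCE, a sarcoglycan (-1.12 ± 0.21, adjusted p = 0.00189), and the retinoic acid binding protein CRABP2 (-1.38 ± 0.33, adjusted p = 0.00767). The one that rose was the chemokine CXCL12 (1.03 ± 0.3, adjusted p = 0.0238). The fibroblast surface glycoprotein THY1 did not pass (-0.38 ± 0.16, adjusted p = 0.0994), and its difference was 0.04 from the processed signals. The list's mean ran from 1.62 to 2.42 on early and from 0.42 to 1.32 on late arrays, with control skin at 0.08 to 0.84. Without late hyper 49L, late hypo 49L or late hypo 50L the call of CXCL12 was lost, with adjusted p from 0.0537 to 0.0925. The calls of the 6 genes that fell held in all 12 fits that left out 1 array. With the share of detected probes as a covariate 3 members of the list fell. Against early side L arrays 4 fell, and with slide as a fixed block 5 did. CRABP2 lost its call under each of these settings, and PTN, described above, lost its call against early side L arrays.

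**Figure D1:**
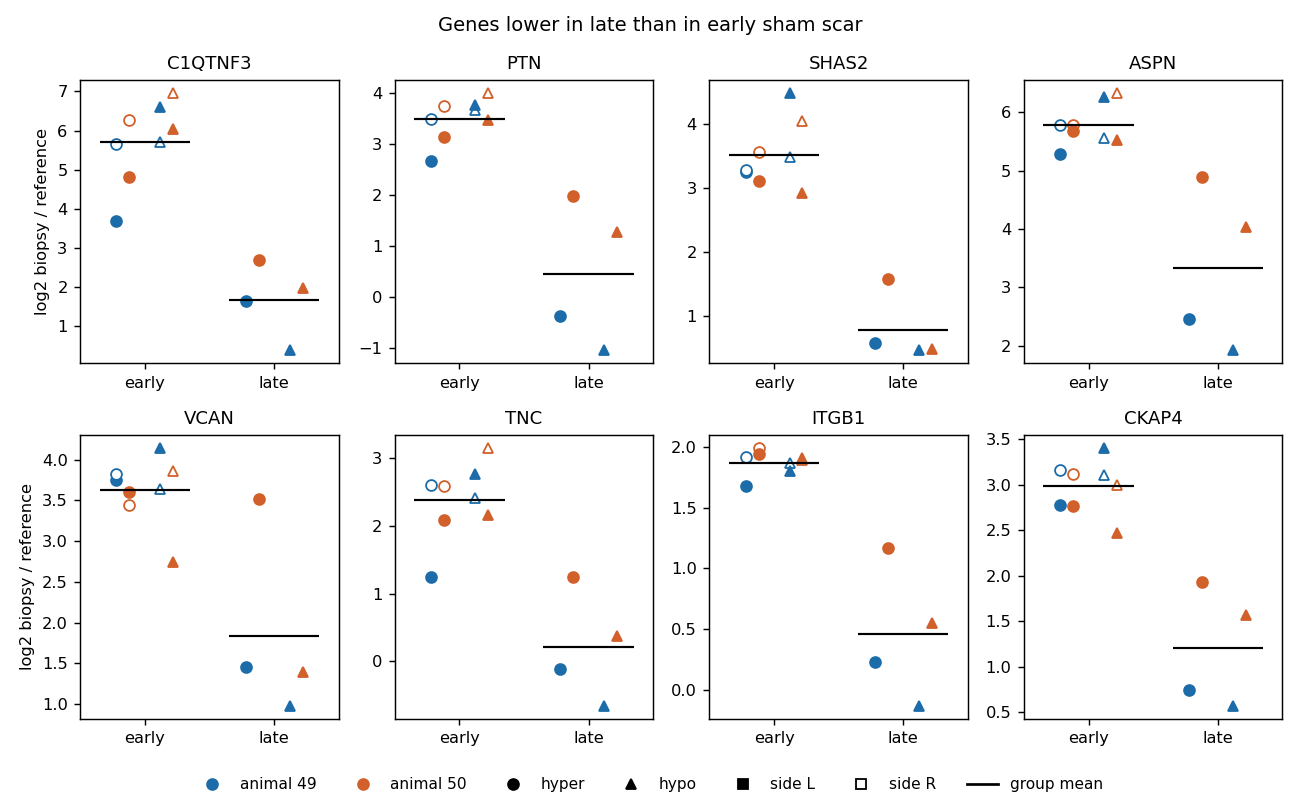
Levels (log2 biopsy over reference) of 8 genes on the 8 early and 4 late sham arrays. Colour marks the animal, shape the pigmentation, filled symbols side L and open symbols side R, and bars the group means. VCAN alone of the 8 has a late array (hyper 50L, 3.52) inside the early range (2.74 to 4.14).

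Most of the measured proteoglycan and glycoprotein genes of the matrix fell. Of 14 measured members 9 fell, 1 rose and 4 did not pass, with a median of -1.36 against 0.03 for all features. Among all features 10.3% fell. ASPN (asporin), a small proteoglycan that binds collagen, had early levels of 5.29, 5.73 and 6.34 and late levels of 2.46, 4.9, 1.92 and 4.04, and fell by 2.45 ± 0.51 (5.45-fold, adjusted p = 0.00351). VCAN (versican), a large proteoglycan that binds hyaluronan, had early levels of 2.74, 3.7 and 4.14 and late levels of 1.46, 3.52, 0.98 and 1.39 (-1.79 ± 0.41, adjusted p = 0.00592). Late hyper 50L stood within the early range for VCAN, and the other 3 late arrays below it. ACAN (aggrecan), the large proteoglycan of cartilage, fell from 3.26, 3.68 and 4.16 to 0.92, 3.39, -0.06 and 1.61 (-2.23 ± 0.55, adjusted p = 0.00906), with the same array inside the early range.

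SHAS2, the pig symbol for a hyaluronan synthase, was not on that list and fell by 2.75 ± 0.4 (6.72-fold, adjusted p = 4.18e-04). Its early levels were 2.92, 3.39 and 4.49, and its late levels were 0.57, 1.57, 0.46 and 0.48. The late values fell short of the lowest early value by more than the whole range of the late group. FBN1 (fibrillin), which builds microfibrils, fell from 2.12, 2.61 and 2.94 to 1.08, 1.58, 0.56 and 0.73 (-1.58 ± 0.25, adjusted p = 6.79e-04). TNC (tenascin C), a glycoprotein of healing wounds, fell from 1.24, 2.5 and 3.15 to -0.12, 1.24, -0.66 and 0.37 (-2.17 ± 0.52, adjusted p = 0.00828). Its highest late array and lowest early array were both at 1.24 after rounding. The collagen-binding DCN (decorin) fell by 1.46 ± 0.4 (adjusted p = 0.017), the matricellular protein SPARC by 1.68 ± 0.55 (adjusted p = 0.0363), thrombospondin THBS1 by 1.27 ± 0.44 (adjusted p = 0.0461) and the hyaluronan link protein HAPLN3 by 0.37 ± 0.12 (adjusted p = 0.0398). LUM (lumican) had a difference of -0.82 ± 0.31 (adjusted p = 0.068). TNXB (tenascin X) rose by 0.94 ± 0.32 (adjusted p = 0.0442), from early levels of -0.9, -0.35 and 0.66 to 0.88, 0.65, 0.41 and 1.21.

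These calls differed in how many arrays they rested on. ASPN, VCAN, SHAS2, FBN1 and TNC kept theirs in each fit that left out 1 array. ACAN lost it without late hyper 49L (adjusted p = 0.0579), and DCN without late hyper 49L or late hypo 49L (0.0877 and 0.0749). SPARC, TNXB, HAPLN3 and THBS1 lost theirs in 7 to 10 of 12 such fits, with adjusted p of up to 0.198. With the share of detected probes as a covariate 4 members of the list still fell, and against early side L arrays 1 did.

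Collagen chains were few under their own symbols, and 2 of 5 measured members fell, against 10.3% of all features, with a list median of -1.16. COL5A2, a chain of the fibril-initiating type V collagen, had early levels of 3.71, 4.61 and 5.19 and late levels of 2.02, 3.7, 2.14 and 3.21 (-1.81 ± 0.46, adjusted p = 0.0115). COL1A2, a chain of the main fibrillar collagen, had early levels of 4.41, 6.26 and 7.25 and late levels of 2.88, 5.66, 3.43 and 5.25 (-1.89 ± 0.66, adjusted p = 0.0489). Both late arrays of animal 50 lay inside the early range for COL1A2. Its difference was -3.41 in animal 49 and -0.37 in animal 50. COL5A1 (-1.16 ± 0.42, adjusted p = 0.0547) and the network collagen COL8A1 (-1.09 ± 0.55, adjusted p = 0.158) did not pass. Without late hyper 49L the adjusted p of COL5A2 was 0.063, and COL1A2 lost its call in 9 of the 12 such fits (0.0631 to 0.243). Against early side L arrays 0 collagen chains fell, and with the detection covariate 1 did.

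All 4 measured genes of collagen processing and crosslinking fell, against 10.3% of all features, with a median of -1.32. SERPINH1, the chaperone of procollagen in the endoplasmic reticulum, had early levels of 1.57, 2.25 and 2.72 and late levels of 0.61, 1.26, 0.27 and 1.26 (-1.4 ± 0.33, adjusted p = 0.00755). LOX, the lysyl oxidase that starts crosslinking, had early levels of 3.26, 3.69 and 4.04 and late levels of 1.61, 2.96, 1.72 and 1.71 (-1.65 ± 0.43, adjusted p = 0.0129). The prolyl hydroxylase subunit P4HA1 fell by 1.1 ± 0.26 (adjusted p = 0.00755), and the prolyl isomerase FKBP10 by 1.24 ± 0.34 (adjusted p = 0.017). The early and late values overlapped for none of the 4 genes. Against early side L arrays 0 of them fell, and with the detection covariate 2 did. LOX lost its call without late hyper 49L or late hypo 50L (adjusted p = 0.0669 and 0.0553), FKBP10 without late hyper 49L or late hypo 49L (0.1 and 0.0678), and P4HA1 without late hypo 50L (0.0602).

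Secretory pathway genes gave the list with the most members that fell: 14 of 23 measured, and 0 rose, with a median of -0.62. Among all features 10.3% fell. The median was -0.56 in animal 49 and -0.59 in animal 50. HSP90B1, the HSP90 chaperone of the endoplasmic reticulum, had early levels of -0.82, -0.22 and 0.14 and late levels of -1.01, -0.9, -2.07 and -1.36 (-1.06 ± 0.15, adjusted p = 4.18e-04). RPN1 and RPN2, subunits of the enzyme complex that attaches N-linked sugars, fell by 1.03 ± 0.18 and 1.07 ± 0.19 (adjusted p = 0.00113 and 0.00149). RPN2 had early levels of -0.07, 0.22 and 0.62 on 7 arrays and late levels of -0.82, -0.77, -0.8 and -0.99. DDOST, of the same complex, fell by 0.76 ± 0.17 (adjusted p = 0.00496).

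CKAP4, a membrane protein of the rough endoplasmic reticulum, had the largest difference of the list. Its early levels were 2.47, 3.05 and 3.4, and its late levels were 0.74, 1.93, 0.57 and 1.57 (-1.77 ± 0.35, adjusted p = 0.00272). The calcium-binding RCN2 fell by 1.02 ± 0.16 (adjusted p = 6.82e-04), the signal peptidase subunit SPCS1 by 0.57 ± 0.11 (adjusted p = 0.00257), the cargo receptor TMED3 by 1.21 ± 0.29 (adjusted p = 0.00835) and the Golgi GTPase ARF4 by 0.98 ± 0.21 (adjusted p = 0.00363). The chaperone DNAJB11 (-0.7 ± 0.16, adjusted p = 0.00535) and the unfolded protein response factor XBP1 (-0.67 ± 0.19, adjusted p = 0.0195) fell too. Of the secretory genes described, XBP1 alone lost its call when 1 array was left out, in 3 of 12 fits (without late hyper 50L, late hypo 49L or late hypo 50L, adjusted p 0.0531 to 0.0784). Over the 12 fits 11 to 15 members fell, and 9 did with slide as a fixed block. With the detection covariate and against early side L arrays 4 members fell in each case.

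Adhesion and cytoskeleton genes fell in 9 of 29 cases, against 10.3% of all features, and 0 rose (median -0.28). Against early side L arrays 1 fell, and with the detection covariate 2 did. ITGB1, the integrin subunit shared by the collagen and fibronectin receptors, was tightly grouped in early scar at 1.68, 1.9 and 1.99, and its late levels were 0.23, 1.17, -0.13 and 0.55 (-1.42 ± 0.18, adjusted p = 3.26e-04). ITGAV, the subunit of integrins that activate latent TGF-beta, fell from 0.58, 1.4 and 1.87 to 0.39, 0.25, 0.06 and -0.14 (-1.21 ± 0.24, adjusted p = 0.00279). Neither integrin gene overlapped between the groups. The galectin LGALS1 (-1.38 ± 0.28, adjusted p = 0.00286) and the tubulin TUBB (-1.27 ± 0.24, adjusted p = 0.00183) also fell. Vinculin VCL (-0.54 ± 0.14, adjusted p = 0.0125) lost its call without late hyper 49L or late hypo 50L (0.0719 and 0.0683), and the actin nucleation subunit ARPC2 (-0.69 ± 0.2, adjusted p = 0.022) without either late array of animal 49 (0.131 and 0.143). The myofibroblast, smooth muscle and pericyte list had 0 of 11 members past the threshold and a median of 0.07. In it ACTA2, the smooth muscle actin of myofibroblasts, had a difference of 0.61 ± 0.27 (adjusted p = 0.117) and the tropomyosin TPM2 one of -0.66 ± 0.27 (adjusted p = 0.0915).

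Of 15 measured matrix proteases and inhibitors, 3 fell and 1 rose (median -0.26), a share of calls above the 19.9% of all features. Against early side L arrays 1 fell and 0 rose, and with the detection covariate 0 fell and 1 rose. MMP11, a stromal metalloproteinase of remodelling tissue, had early levels of 1.93, 2.57 and 3.53 and late levels of 0.43, 0.66, 0.34 and 0.64 (-2.15 ± 0.36, 4.43-fold lower, adjusted p = 0.00101). The late values were close together, and the difference was -2.14 in animal 49 and -2.16 in animal 50. MMP14, the membrane protease that activates MMP2, fell by 1.67 ± 0.48 (adjusted p = 0.021), with 3 late values of 2.2, 2.77 and 2.12, since the value of late hypo 49L was treated as missing. The inhibitor TIMP2 fell by 0.89 ± 0.26 (adjusted p = 0.0207), and the protease inhibitor SERPINE2 rose by 0.66 ± 0.21 (adjusted p = 0.0332). MMP2 (-0.84 ± 0.33, adjusted p = 0.0749) and TIMP1 (-0.67 ± 0.29, adjusted p = 0.108) did not pass. MMP14 lost its call without either late hyper array (0.0508 and 0.055), TIMP2 without late hyper 50L or late hypo 50L (0.0997 and 0.0945), and SERPINE2 in 7 of 12 fits (0.0526 to 0.151).

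Of 24 TGF-beta and BMP pathway genes 4 rose and 1 fell (median -0.03), a share of calls close to the 19.9% of all features. CTGF, a secreted factor that TGF-beta induces in fibroblasts, had early levels of 2.79, 3.65 and 4.26 and late levels of 1.19, 2.94, 1.78 and 1.79 (-1.62 ± 0.46, adjusted p = 0.0186). ID2, an inhibitor of basic helix-loop-helix factors and a BMP target, had early levels of -2.24, -1.5 and 0.18 and late levels of 1.21, 0.12, 0.32 and -0.4 (1.57 ± 0.44, adjusted p = 0.0186). A single early array, at 0.18, lay among the late values of ID2. The related ID3 (0.77 ± 0.27, adjusted p = 0.0495), the activin subunit INHBA (0.43 ± 0.15, adjusted p = 0.0473) and the receptor BMPR1B (0.41 ± 0.13, adjusted p = 0.0379) rose by less. Only 1 of 2 INHBA probes had this direction. The ligand TGFB3 had a difference of -0.82 ± 0.32 (adjusted p = 0.0747). CTGF lost its call without late hyper 49L or late hypo 50L (0.108 and 0.0694), ID2 without late hyper 49L or late hypo 49L (0.0878 and 0.074), and ID3, INHBA and BMPR1B in 8 to 10 of 12 fits (up to 0.232).

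Of 16 growth factor and IGF genes PTN and the IGF binding protein IGFBP4 (-1.09 ± 0.3, adjusted p = 0.0148) fell, and the receptor EGFR (0.85 ± 0.28, adjusted p = 0.0376) rose. IGFBP4 was well above background on 1 of 4 late arrays. Of 6 WNT pathway genes DKK3, a Dickkopf family protein, fell (-1.4 ± 0.35, adjusted p = 0.0103), and the antagonist SFRP4 had a difference of 1.2 ± 0.53 (adjusted p = 0.109). Of 15 cell cycle genes 3 fell: the cyclin CCND2 (-0.96 ± 0.24, adjusted p = 0.01), its kinase partner CDK4 (-0.79 ± 0.22, adjusted p = 0.0165) and the topoisomerase TOP2A (-0.54 ± 0.19, adjusted p = 0.0475). The hypoxia factor HIF1A fell by 0.63 ± 0.2 (adjusted p = 0.033), as 1 of 11 hypoxia and glycolysis genes. In the growth factor, WNT and cell cycle lists the share of calls was close to the 19.9% of all features. In the hypoxia list it was below that share. All 3 calls of the cell cycle list were falls, a share above the 10.3% of all features that fell. Without late hyper 50L the calls of IGFBP4 (0.0762), DKK3 (0.0657) and CDK4 (0.0736) were lost. IGFBP4 also lost its call without late hypo 49L (0.0652), CDK4 without late hypo 50L (0.0595), and CCND2 without late hyper 49L (0.063) or late hypo 49L (0.0857). The calls of EGFR, HIF1A and TOP2A were lost in 5 to 10 fits (up to 0.378).

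Other genes lay among the 15 largest falls that had a symbol and 1 direction in both animals. ITGA2B, the integrin subunit of platelets, fell by 2.12 ± 0.45 (adjusted p = 0.00386), the olfactomedin-like OLFML2B by 2.04 ± 0.44 (adjusted p = 0.00438) and the MAGE family protein MAGED1 by 1.87 ± 0.34 (adjusted p = 0.00143). The largest difference of all tested features belonged to a transcript without a symbol, TC556001. Its early levels were 4.52, 6.29 and 7.1 and its late levels 1.36, 2.86, -0.21 and 1.75 (-4.76 ± 0.91, adjusted p = 0.00211). TC591146 followed among those without a symbol (-3.72 ± 0.66, adjusted p = 0.00132). Neither transcript overlapped between the groups, and all 5 kept their calls in each fit that left out 1 array. ITGA2B lost its call against early side L arrays and with the detection covariate. OLFML2B lost its call against early side L arrays and from the processed signals.

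Of 26 measured interferon response genes 10 rose, 1 fell and 15 did not pass (median 0.59 against 0.03 for all features). The share that rose was above the 9.65% of all features, and 24 members had a positive difference. IFIT1, an antiviral RNA-binding protein, had early levels of -0.66, -0.45 and 0.2 and late levels of 1.53, 1.2, 1.42 and 0.71 (1.56 ± 0.2, 2.94-fold higher, adjusted p = 3.26e-04). The groups did not overlap, and its call held under each of the 18 alternatives and each of the 12 fits without 1 array. ISG15, a ubiquitin-like protein, had early levels of 0.2, 0.55 and 1.57 and late levels of 3.02, 1.4, 2.59 and 1.97 (1.56 ± 0.31, adjusted p = 0.00272). Its animal 49 late arrays were the highest, and hyper 50L lay inside the early range.

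The guanylate-binding proteins GBP1 and GBP2 act in cell-autonomous immunity. GBP1 rose from -2.37, -1.87 and -1.16 to -0.36, -0.73, -0.28 and -0.98 (1.2 ± 0.25, adjusted p = 0.00374), and GBP2 from -1.14, -0.82 and -0.6 to -0.14, -0.08, 0.26 and 0.03 (0.85 ± 0.15, adjusted p = 0.00112). Neither overlapped between the groups. The RNA sensor IFIH1 (1.04 ± 0.2, adjusted p = 0.00251), the factors IRF1 (0.92 ± 0.21, adjusted p = 0.00536) and IRF7 (0.65 ± 0.16, adjusted p = 0.00865), and the antiviral enzyme RSAD2 (1.18 ± 0.27, adjusted p = 0.00585) rose. CXCL10, a chemokine that interferon induces, had early levels of -2.05, -1.44 and -0.31 and late levels of 1.36, -0.28, 2.43 and -1.5 (1.7 ± 0.53, adjusted p = 0.0304). Its difference was 3.34 in animal 49 and 0.06 in animal 50. The thiol reductase IFI30 fell (-0.9 ± 0.3, adjusted p = 0.0396). The median of the list was 0.91 in animal 49 and 0.22 in animal 50. Its mean per late array was 0.83, 0.02, 0.66 and 0.11. On the same arrays the phagocyte and neutrophil list averaged 1.06, -0.62, 0.4 and -0.65, and the lysosome list 1.82, 0.04, 1.04 and -0.18. The late animal 49 arrays were the highest late arrays for all 3 lists. The part of these cells in the interferon values was not tested.

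IFIT1, ISG15, GBP1, GBP2, IFIH1 and IRF1 kept their calls in each fit that left out 1 array. RSAD2 lost it without late hypo 49L (adjusted p = 0.0531), IRF7 without late hyper 49L (0.0717), and CXCL10 and IFI30 in 6 and 9 fits (up to 0.3). With the detection covariate 4 members of the list rose, and 2 did against early side L arrays. The same levels were 0.14 ± 0.16 (SD, n = 4) for IFIT1 and 1.05 ± 0.56 for ISG15 in late pressure-treated scar, against 1.21 ± 0.36 and 2.24 ± 0.71 in late sham scar. That difference was not tested here.

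Of 12 class I antigen presentation genes 5 rose, 0 fell and 7 did not pass (median 0.48): the immunoproteasome subunits PSMB9 (1.19 ± 0.27, adjusted p = 0.00611) and PSMB8 (0.72 ± 0.21, adjusted p = 0.0211), the peptide transporter TAP1 (0.69 ± 0.21, adjusted p = 0.0247), the proteasome activator PSME1 (0.46 ± 0.15, adjusted p = 0.039) and the class I light chain B2M (0.94 ± 0.33, adjusted p = 0.0473). PSMB9 had early levels of -1.64, -1.24 and -0.57 and late levels of 0.89, -0.63, -0.08 and -0.31, with late hyper 49L far above the other late arrays. Without that array the adjusted p was 0.0542 for PSMB9, 0.125 for PSMB8 and 0.168 for TAP1. PSMB8 also lost its call without late hypo 50L (0.0764) and TAP1 without late hypo 49L (0.162), and PSME1 and B2M lost theirs in 8 and 10 fits (up to 0.336). The share of class I genes that rose was above the 9.65% of all features. In the fits that left out 1 array 0 to 8 members rose. With the detection covariate, against early side L arrays and with slide as a fixed block 0 members rose. The list median was 0.78 in animal 49 and 0.17 in animal 50.

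Of 19 T and NK cell genes 7 rose, against 9.65% of all features, and 0 fell (median 0.35). CD247, the signalling chain of the T cell receptor, had early levels of -2.0, -1.55 and -1.32 and late levels of -0.66, -0.97, -0.69 and -0.52 (0.89 ± 0.21, adjusted p = 0.0066), without overlap. The NK receptor KLRK1 (0.67 ± 0.16, adjusted p = 0.00692), the granzymes GZMH (0.5 ± 0.14, adjusted p = 0.0145) and GZMB (0.61 ± 0.19, adjusted p = 0.0289), CD3G of the T cell receptor complex (0.54 ± 0.17, adjusted p = 0.0304) and the surface protein CD96 (0.44 ± 0.13, adjusted p = 0.0249) rose. CD96 was well above background on 2 of 8 early and 1 of 4 late arrays, KLRK1 on 4 and 2, and CD3G on 5 and 2. The seventh was GATA3, which keratinocytes also express, described with the epidermal genes. The list's mean ran from -0.72 to -0.39 on early and from -0.2 to 0.03 on late arrays, with control skin at -0.71 to -0.51. CD247 kept its call in each fit without 1 array. The other 5 lost theirs in 1 to 4 fits. Without late hyper 49L the adjusted p was 0.0556 for KLRK1, 0.11 for GZMH, 0.129 for CD96 and 0.127 for CD3G. Without late hypo 50L it was 0.0955 for GZMH, 0.102 for CD96, 0.157 for CD3G and 0.068 for GZMB. GZMB also lost its call without late hyper 50L (0.257) and late hypo 49L (0.085), and CD3G without early hypo 50R (0.0583) and early hypo 49R (0.052). With the detection covariate, against early side L arrays, with slide as a fixed block and in hyper arrays alone 0 members rose. In hypo arrays alone 5 rose.

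Of 36 cytokine and chemokine genes 6 rose and 0 fell (median 0.26). The share called was below the 19.9% of all features, while the share that rose was above the 9.65% of all features. CCL27, a chemokine of keratinocytes that draws T cells to skin, had early levels of 0.28, 2.15 and 3.18 and late levels of 4.0, 5.03, 5.01 and 5.62. It rose by 3.09 ± 0.37 (8.49-fold, adjusted p = 1.93e-04), the largest positive difference of any tested feature, and every late array lay above every early array. CCL19, which guides T and dendritic cells, rose from -1.36, -0.8 and 0.32 to 1.46, -0.31, 0.59 and 0.01 (1.18 ± 0.31, adjusted p = 0.0123). CCL26 (1.09 ± 0.33, adjusted p = 0.0261), CCL3L1 (1.06 ± 0.32, adjusted p = 0.0265) and the mucosal chemokine CCL28 (1.01 ± 0.35, adjusted p = 0.047) rose, with CXCL12 as above. For CCL3L1 late hyper 50L, at 2.85, alone lay above the early range, and without it the difference was 0.32 (adjusted p = 0.31). Its call was also lost without late hypo 49L (0.0739) or late hypo 50L (0.0702). CCL27 kept its call in each fit without 1 array, CCL19 and CCL26 lost theirs without either late array of animal 49 (0.06 to 0.14), and CCL28 in 10 fits (up to 0.254).

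**Figure D2:**
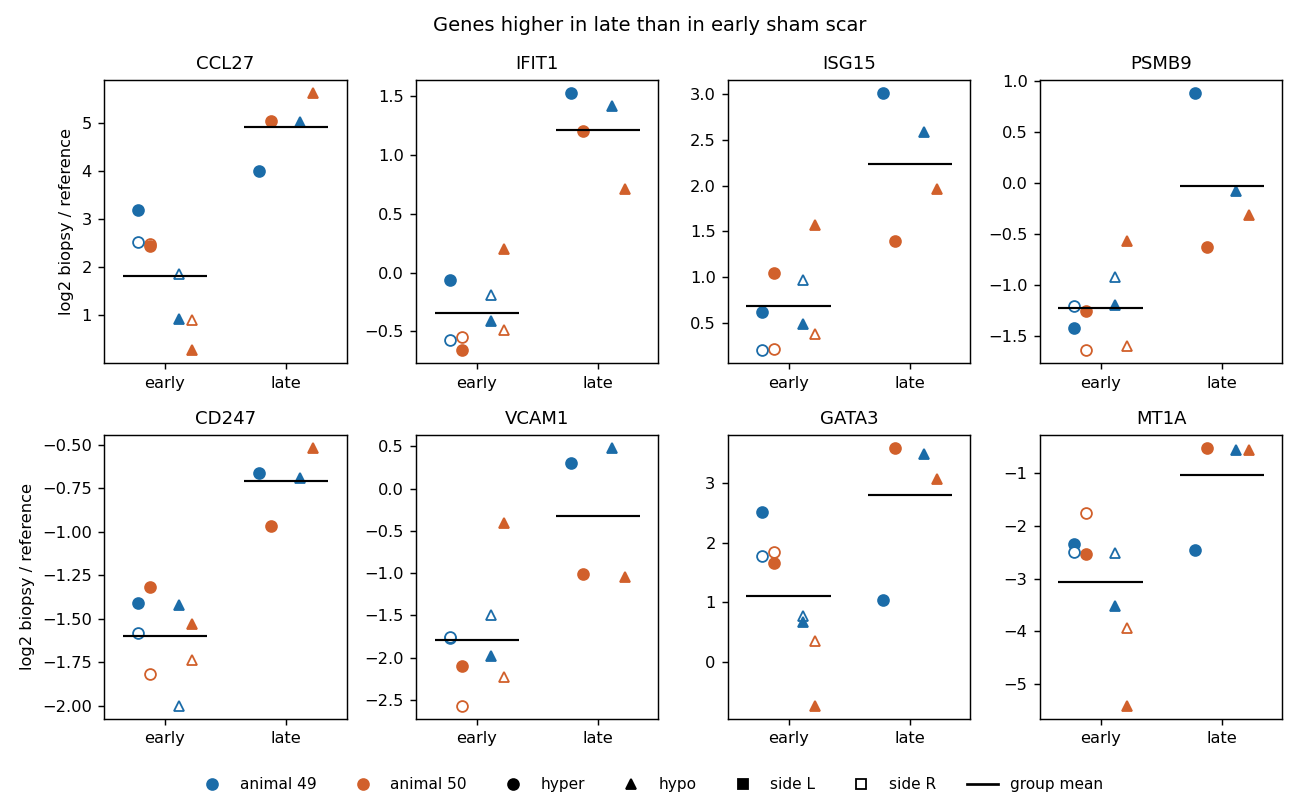
Levels (log2 biopsy over reference) of 8 genes on the 8 early and 4 late sham arrays, with symbols by animal (colour), pigmentation (shape) and side (fill) and bars at the group means. For CCL27, IFIT1 and CD247 every late array lies above every early array. For ISG15, PSMB9, VCAM1, GATA3 and MT1A the groups overlap.

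Complement genes rose in 5 of 16 cases and 0 fell (median 0.55): C4A (1.09 ± 0.31, adjusted p = 0.0176), vitronectin VTN, which holds back the terminal complex (0.69 ± 0.2, adjusted p = 0.0209), C2 (0.64 ± 0.22, adjusted p = 0.0454), C5 (0.55 ± 0.19, adjusted p = 0.0474) and C9 (0.52 ± 0.18, adjusted p = 0.0418). The share of complement genes that rose was above the 9.65% of all features. With the detection covariate, against early side L arrays and with slide as a fixed block 0 complement members rose. None of the 5 calls held in each fit without 1 array: C4A lost it without late hyper 49L, late hypo 49L or late hypo 50L (0.116, 0.0525 and 0.054), VTN without late hyper 50L or late hypo 50L (0.103 and 0.162), and C2, C5 and C9 in 8 to 10 (up to 0.306). Of 14 endothelial genes the tight junction gene CLDN5 rose from 0.35, 0.84 and 1.17 to 1.88, 1.54, 3.01 and 1.33 (1.08 ± 0.27, adjusted p = 0.00914), and the adhesion gene ICAM2 rose by 0.75 ± 0.25 (adjusted p = 0.0411). VWF, the clotting factor of endothelium, had a difference of 0.56 ± 0.23 (adjusted p = 0.0948). The share of endothelial genes called was below the 19.9% of all features, while the share that rose was above the 9.65% of all features. VCAM1, which binds leukocytes, rose from -2.57, -1.87 and -0.41 to 0.31, -1.01, 0.48 and -1.05 (1.47 ± 0.42, adjusted p = 0.019), with the animal 49 arrays above and the animal 50 arrays inside the early range. VCAM1 lost its call without either late array of animal 49 (0.0957 and 0.109), CLDN5 without late hypo 49L (0.0873), and ICAM2 in 9 fits (up to 0.346).

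Few myeloid genes passed the threshold. The macrophage and dendritic cell list had a median of 0.57 in animal 49 and -0.06 in animal 50. Of its 29 genes 1 rose, the lipid-presenting CD1D (0.47 ± 0.14, adjusted p = 0.0278), which was well above background on 1 of 4 late arrays. It lost its call without early hyper 49R (0.0509), late hyper 50L (0.198), late hypo 49L (0.0707) or late hypo 50L (0.0771). Of 13 phagocyte and neutrophil genes and of 21 lysosome genes 0 passed. The chemokine receptor CCR1 had late levels of 2.99, -0.65, 2.21 and -0.88 and a difference of 1.63 ± 0.85 (adjusted p = 0.172), and the leukocyte integrin ITGB2 one of 1.24 ± 0.66 (adjusted p = 0.184). In both genes the late animal 49 arrays were high and the late animal 50 arrays low. Of 3 B and plasma cell genes 1 fell, XBP1, and of 4 mast cell genes 0 passed. No gene of the red blood cell list was measured.

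A few epidermal genes rose, and unevenly between the animals. GATA3, a transcription factor of keratinocytes and T cells, had early levels of -0.73, 1.21 and 2.51 and late levels of 1.04, 3.58, 3.48 and 3.07 (1.69 ± 0.41, adjusted p = 0.00821). Late hyper 49L lay within the early range, and the other 3 late arrays above it. The small GTPase RHOV (1.68 ± 0.51, adjusted p = 0.0257), the epithelial membrane protein MAL2 (1.44 ± 0.45, adjusted p = 0.0306) and the desmosomal cadherin DSG1 (1.3 ± 0.39, adjusted p = 0.0258) rose. RHOV and MAL2 were on no gene list. DSG1 and the suprabasal keratin KRT2 (1.86 ± 0.65, adjusted p = 0.0478) were the 2 of 13 differentiated keratinocyte genes that passed (list median 0.45). This share was below the 19.9% of all features called and above the 9.65% that rose. The list median was -0.02 in animal 49 and 0.99 in animal 50, and -0.09 in hyper and 1.1 in hypo scar. KRT2 differed by 3.86 in animal 50 and by -0.14 in animal 49.

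The same early array, hypo 50L, was lowest for RHOV (-1.61), MAL2 (-3.57), DSG1 (0.05) and the splicing factor ESRP1 (-2.07), and ESRP1 did not pass (1.19 ± 0.45, adjusted p = 0.0676). Without that array RHOV, MAL2 and DSG1 kept their calls. Without late hyper 50L the calls of GATA3 (adjusted p = 0.0891), RHOV (0.237), MAL2 (0.214) and DSG1 (0.175) were lost. Without late hypo 50L those of RHOV (0.0764), MAL2 (0.0737) and DSG1 (0.141) were lost, without late hypo 49L those of RHOV (0.0659) and MAL2 (0.0879), and without early hyper 50L that of MAL2 (0.0527). KRT2 lost its call in 7 fits (up to 0.264). Of 9 basal and activated keratinocyte genes the defensin DEFB1 rose from -3.67, -2.91 and -2.58 to -2.88, -2.27, -2.02 and -1.71 (0.78 ± 0.14, adjusted p = 0.00169), though the mean of its 2 probes differed by -0.27. The protease inhibitor PI3 also passed, but was well above background on 0 late arrays, and no size is given for it. The part that the amount of epidermis in a biopsy had in these differences was not tested.

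Lipid and hormone enzymes gave several of the larger rises. DGAT2, which makes triglyceride, had early levels of -2.04, -1.17 and -0.19 and late levels of 0.35, -0.54, 1.79 and 0.14 (1.59 ± 0.37, 3.0-fold higher, adjusted p = 0.0069), and the adipocyte regulator PPARG rose by 1.18 ± 0.4 (adjusted p = 0.0448). Of 22 sebaceous and lipid synthesis genes these 2 rose, while the desaturase SCD5 (-1.28 ± 0.27, adjusted p = 0.00386) and the acyl-CoA synthetase ACSL3 (-0.92 ± 0.2, adjusted p = 0.00516) fell. The same 2 genes were the members of the adipocyte list that rose, of 21 measured, with a list median of 0.52. The share of calls was close to the 19.9% of all features in the lipid synthesis list and below it in the adipocyte list. The adipocyte median was 0.47 in animal 49 and -0.1 in animal 50. Its mean per late array was 0.29, -0.8, 0.87 and -0.44, against -0.95 to -0.19 on early arrays. ADIRF, an adipogenesis factor, was on neither list and rose by 1.38 ± 0.3 (adjusted p = 0.00453). The part that the amount of fat in a biopsy had in these differences was not tested.

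DIO2, which activates thyroid hormone, had early levels of -0.53, -0.22 and 0.1 on 7 arrays and late levels of 0.99, 1.56, 2.76 and 1.03 (1.79 ± 0.25, adjusted p = 4.18e-04). It was well above background on 4 of 8 early and 4 of 4 late arrays, and the groups did not overlap. CYP19A1, the aromatase that makes oestrogen, rose from -0.55, -0.08 and 0.35 to 0.58, 0.64, 0.63 and 1.84 (1.05 ± 0.23, adjusted p = 0.00469). The oestrogen sulfotransferase SULT1E1 (1.12 ± 0.27, adjusted p = 0.00847) and the glucocorticoid receptor NR3C1 (0.66 ± 0.17, adjusted p = 0.0112) rose as well. Of 13 retinoid, steroid and stress hormone genes these 3 rose and CRABP2 fell, a share of calls above the 19.9% of all features. With the detection covariate, against early side L arrays and with slide as a fixed block 0 members of this list rose or fell. FMO1, a flavin monooxygenase, rose by 1.39 ± 0.31 (adjusted p = 0.00532), and its call too was lost under each of these settings. Of these genes PPARG lost its call in 11 fits without 1 array (up to 0.171) and SULT1E1 without late hyper 50L (0.0682).

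Of 17 metallothionein and redox genes 3 rose, a share of calls close to the 19.9% of all features. The share that rose was above the 9.65% of all features. MT1A, a metal-binding metallothionein, had early levels of -5.41, -2.53 and -1.75 and late levels of -2.46, -0.53, -0.56 and -0.56 (2.03 ± 0.45, 4.09-fold higher, adjusted p = 0.0052). Late hyper 49L lay inside the early range, and the other 3 late arrays were nearly equal. The peroxidases PRDX6 (0.72 ± 0.21, adjusted p = 0.0198) and GPX3 (0.87 ± 0.28, adjusted p = 0.0338) rose less. MT1A kept its call in each fit without 1 array, PRDX6 lost it without late hyper 50L or late hypo 49L (0.0769 and 0.0689) and GPX3 in 6 (up to 0.188). Of 19 immediate early and stress genes the chaperones DNAJB1 (1.1 ± 0.38, adjusted p = 0.0474) and HSPA1L (0.63 ± 0.19, adjusted p = 0.0251) and the factor MYC (0.54 ± 0.19, adjusted p = 0.0463) rose. The share of stress genes called was below the 19.9% of all features, while the share that rose was above the 9.65% of all features. HSPA1L lost its call without late hyper 50L or late hypo 50L (0.0996 and 0.168), and DNAJB1 and MYC lost theirs in 9 and 8 fits (up to 0.308).

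Among the largest rises with a symbol ARHGAP25, a GTPase regulator of blood cells, rose by 1.41 ± 0.4 (adjusted p = 0.0199), and its call was lost without either late array of animal 49 (0.0844 and 0.108). The transcript ENSSSCT00000010819, without a symbol, rose from -2.42, -1.97 and -1.78 to 0.25, 1.18, -0.44 and 1.47 (2.66 ± 0.36, 6.3-fold higher, adjusted p = 3.26e-04), and TC618778 rose by 2.03 ± 0.32 (adjusted p = 6.79e-04). Neither overlapped between the groups, and both kept their calls without each array in turn.

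Markers of other cell types in the biopsies seldom passed the threshold. Of 33 skeletal muscle genes 1 rose, MYOG, a muscle differentiation factor (0.43 ± 0.14, adjusted p = 0.0406), while 30 had a positive difference. The median of the muscle list was 0.4, with 0.82 in animal 49 and -0.1 in animal 50. The muscle list's mean ran from -2.52 to 0.24 on early and from -2.23 to -0.64 on late arrays. Its highest early array was hypo 50L, and the next was hyper 49R at -2.11. Early hypo 50L was also the lowest early array of the differentiated keratinocyte list (-0.89). Of 12 sweat and apocrine gland genes, 7 hair follicle genes and 21 pigment genes 0 passed, and of 5 nerve and Schwann cell genes MBP, a myelin protein, rose (1.0 ± 0.26, adjusted p = 0.012). The pigment list had a median of 0.01. The melanin enzymes DCT and TYRP1 had differences of 0.44 ± 0.22 (adjusted p = 0.145) and -0.35 ± 0.28 (adjusted p = 0.377), and the melanosome transport gene RAB32 one of -0.37 ± 0.15 (adjusted p = 0.0761). Of 35 cytosolic ribosomal protein genes RPL13A rose (0.53 ± 0.11, adjusted p = 0.00304), with 2 of its 3 probes in that direction, and of 25 oxidative phosphorylation genes ATP5O fell (-0.38 ± 0.13, adjusted p = 0.0371). The calls of MYOG and ATP5O were lost in 9 and 10 fits without 1 array (up to 0.164), and that of MBP without late hyper 50L or late hypo 50L (0.0686 and 0.0973).

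**Figure D3:**
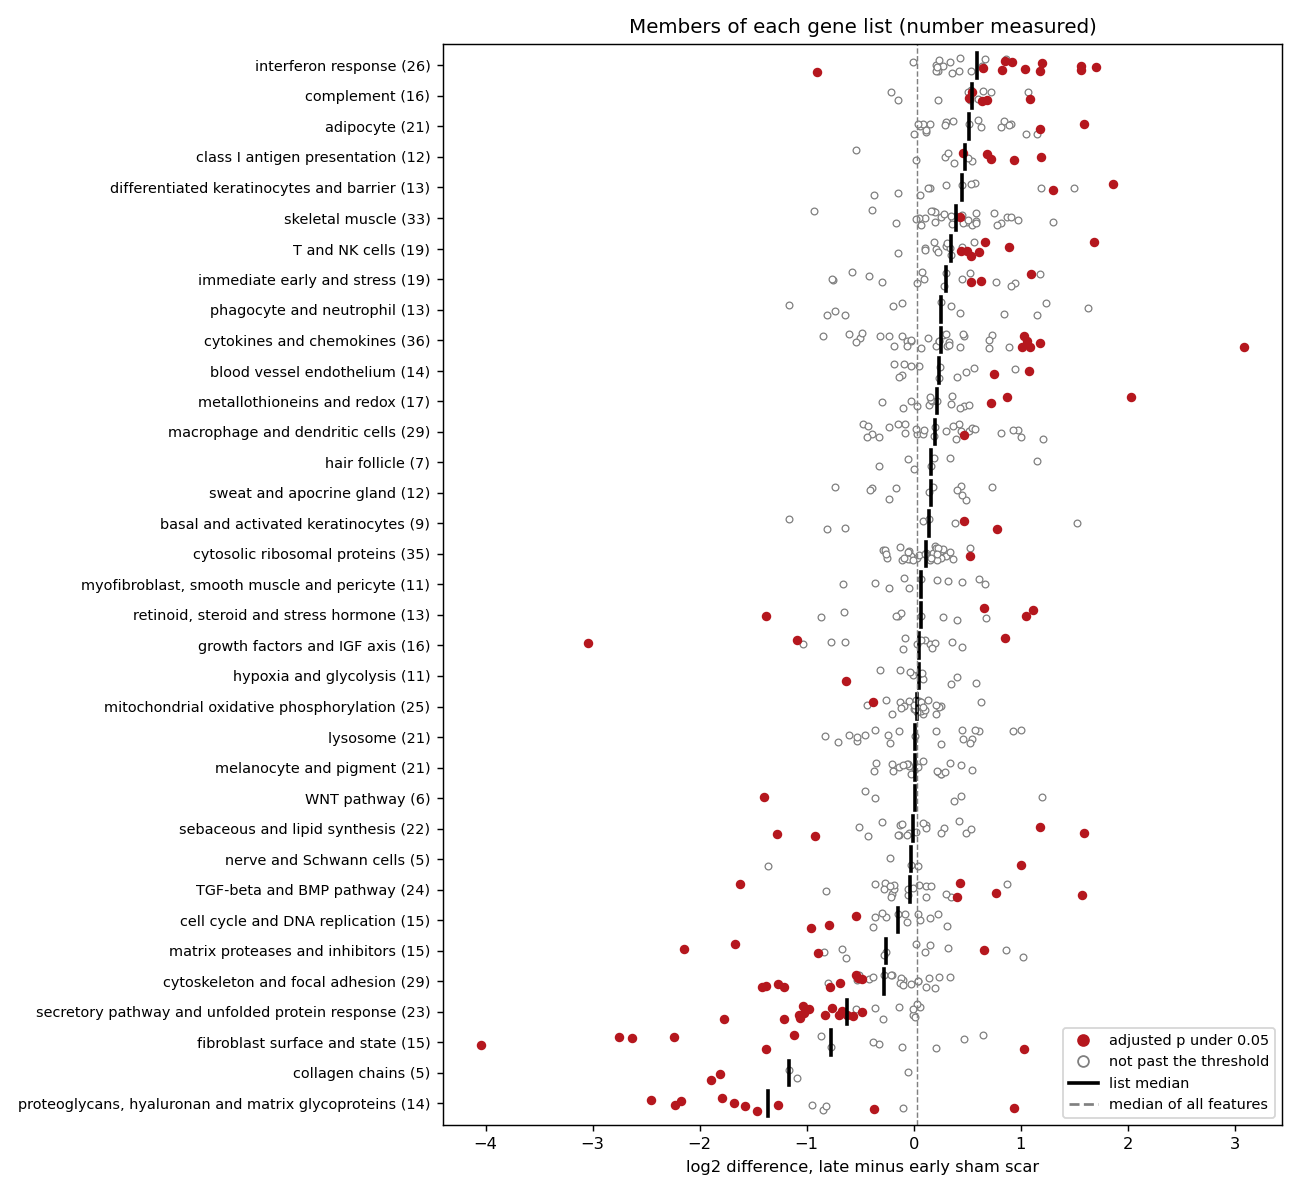
Log2 differences (late minus early sham scar) of the members of each gene list with 5 or more measured genes, with the list median as a bar, the median of all features (0.03) as a dashed line, and red points for adjusted p under 0.05. Matrix, fibroblast and secretory lists lie lowest, and the interferon list (median 0.59) highest.

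The levels in mid scar lay between those of early and late scar for several of these genes, but not for the matrix lists. Per-array means of the collagen chain list had a median of 3.87 in early, 2.36 in mid and 2.62 in late sham scar. For the matrix glycoprotein list these medians were 2.97, 1.5 and 1.55, and for the collagen processing list 2.79, 1.1 and 1.36. C1QTNF3 averaged 5.72 ± 1.05 (SD, n = 8) in early, 2.72 ± 2.13 (n = 4) in mid and 1.68 ± 0.97 (n = 4) in late sham scar, against 0.94 ± 0.86 (n = 4) in control skin. PTN averaged 3.49 ± 0.42, 1.16 ± 1.61 and 0.45 ± 1.41 in the same phases and -0.29 ± 0.34 in control skin. ASPN averaged 5.78 ± 0.36, 3.93 ± 1.33 and 3.33 ± 1.38 and was at 1.23 ± 0.81 in control skin. CCL27 averaged 1.82 ± 1.01, 3.56 ± 1.3 and 4.91 ± 0.67, with control skin at 4.3 ± 0.15. IFIT1 averaged -0.34 ± 0.3, -0.16 ± 0.31 and 1.21 ± 0.36, with control skin at -0.47 ± 0.63, so its mid level was near the early one. In mid scar the SD over 4 biopsies was larger than the gap to late scar for C1QTNF3, PTN and ASPN. Mid and late scar are each set against the same early arrays here, and no test between them was made.

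**Figure D4:**
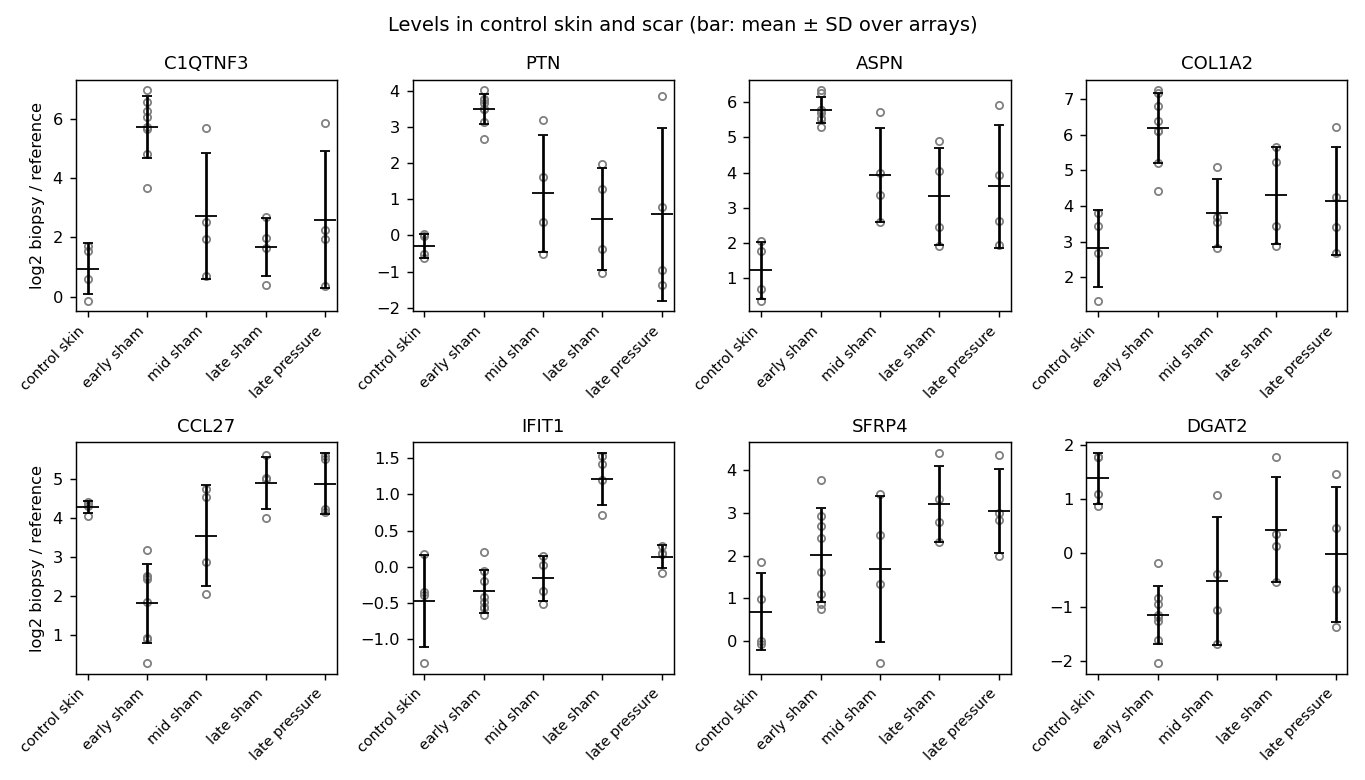
Levels (log2 biopsy over reference) of 8 genes in control skin (4 arrays), early sham (8), mid sham (4), late sham (4) and late pressure-treated scar (4), with each array as a circle and mean ± SD as bars. C1QTNF3, PTN, ASPN and COL1A2 are highest in early scar, CCL27 and DGAT2 are lowest there, and IFIT1 stands out in late sham scar. SFRP4 did not pass between late and early scar.

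The difference between late and early scar was next set against pigmentation. The test of the change in hyper scar against that in hypo scar called 0 of 18768 features (0%) with limma, with a smallest adjusted p of 0.0681, and 1808 features (9.63%) had an unadjusted p under 0.05. Within hyper arrays alone (4 early, 2 late) 20 features passed, and within hypo arrays alone (4 early, 2 late) 3362 did. C1QTNF3 differed by -2.93 in hyper and by -5.15 in hypo scar, CCL27 by 1.85 and 4.32, GATA3 by 0.36 and 3.01, and MT1A by 0.78 and 3.28. COL1A2 differed by -1.88 and -1.89 in the 2 kinds of scar, and IFIT1 by 1.83 and 1.29. None of these differences between hyper and hypo scar passed the test.

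The animals differed more clearly. The change from early to late scar differed between animal 50 and animal 49 for 257 of 18761 features (1.37%) in a fit to the 12 arrays, 173 higher and 84 lower in animal 50. The lysosomal protease CTSZ had late levels of 2.55 and 2.23 in animal 49 and of -1.13 and -0.72 in animal 50, against early levels of -1.03 to 1.2, and the difference between the animals was -3.38 ± 0.5 (adjusted p = 0.0194). The lysosomal protease CTSB (-2.38 ± 0.33, adjusted p = 0.0185) and CD86, a costimulatory protein of macrophages and dendritic cells (-2.14 ± 0.33, adjusted p = 0.0203), differed in the same direction. The RNA helicase DDX46 (1.99 ± 0.22, adjusted p = 0.0185) and the chromatin protein RSF1 (1.53 ± 0.23, adjusted p = 0.0198) differed the other way. CTSB and RSF1 each had 2 of 4 probes with the direction of the late minus early value. The median of the lysosome list was 0.51 in animal 49 and -0.68 in animal 50, that of the phagocyte list 0.99 and -0.54, and that of the matrix glycoprotein list -1.94 and -0.53. Late hypo 49L also carries the higher title number, so animal and that number are partly confounded.

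**Figure D5:**
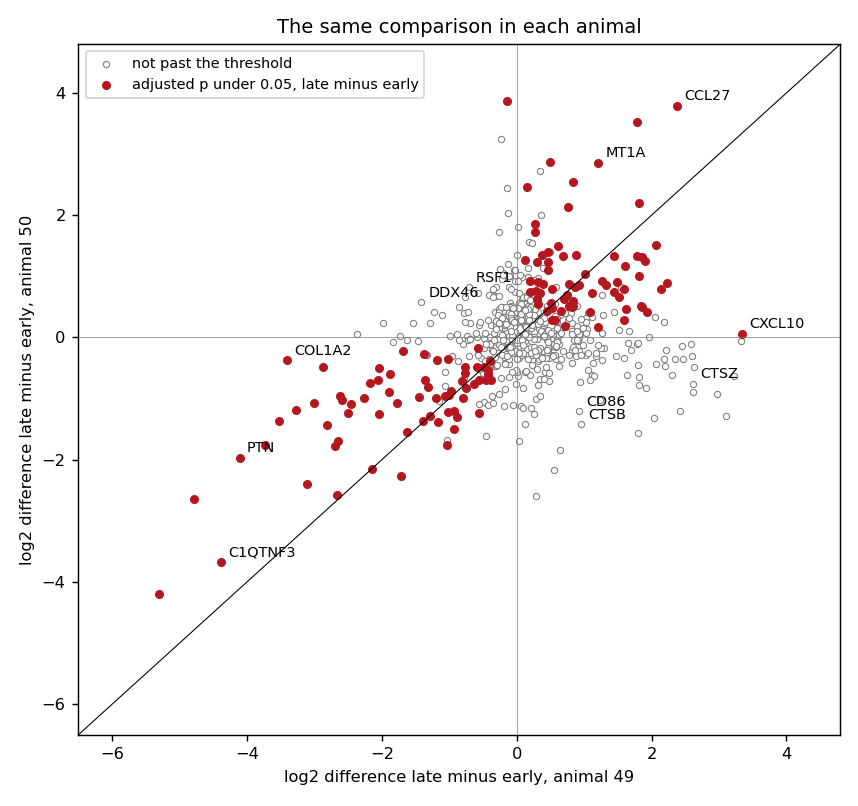
Log2 differences (late minus early sham scar) in animal 49 (x axis) and animal 50 (y axis) for the listed and named genes, with the line of equal differences and red points for adjusted p under 0.05 in the comparison over both animals. C1QTNF3, PTN and CCL27 lie on the same side of 0 in both animals, COL1A2 and CXCL10 lie near 0 in animal 50, and CTSZ, CTSB, CD86, DDX46 and RSF1 have opposite signs.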

How the data were processed

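RNA from 28 pig skin and scar biopsies (Cy5) was hybridised with a universal pig reference RNA (Cy3) on 2-colour arrays of 43603 probes, on 7 slides. The scanner program was Agilent Feature Extraction 10.7.1.1, per the submitters' processing notes. The deposited scanner files, per the file headers, hold median spot and background intensity, and a processed intensity after the scanner's own background subtraction and dye normalization. The authors' deposited values, a further file, are log2 values, whose scale, centring and direction are not stated and were checked against the scanner files, and it served as an alternative.

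Within each array and channel, local background values over percentile 99 were set to it. This cap was adopted in an earlier analysis after the data were seen, and uncapped correction left negative controls above 100 on 14 of 28 arrays. Then came normexp correction (offset 50), loess within arrays with control spots at weight 0, removal of outlier spots (0.53% of values missing) and averaging of spots per probe. A probe had to be well above background in Cy5 on 4 or more arrays (24513 probes), the brightest probe stood for each feature, and 18768 features were tested. RefSeq symbols were available for 2606 of them, and the 108 probes with LOC names were treated as having no symbol. A single limma 3.58.1 fit in R 4.3.3 held 11 group means, with animal as blocking factor, and was tested on simulated data. Figures used Python 3.11.15 and matplotlib 3.10.9. The number of arrays limits the precision.

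The members and gene lists were chosen with earlier results of these data known. The genes named were the 15 largest rises and the 15 largest falls with a symbol and a shared direction in the animals, the members of each list with the smallest p (6 at most), the 2 largest rises and falls without a symbol, and up to 5 genes for each interaction. Other list members past the threshold were named after their values were seen. The animal number pairs the arrays because, per the labels, the same pigs were sampled in each group. Deviations of same-numbered arrays from group means correlated at 0.192 between the early groups and at 0.31 between the late groups. Between an early and a late group the correlations ran from -0.362 to 0.00445. Without the replicate block 3710 features passed. The alternatives covered background, normalization, filters, probes, slide, side, pigmentation, detection and each array left out.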

Additional observations from a re-analysis of the deposited data

Results flagged for a closer look

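In 300 combinations of gene and group, 11 early and 12 late groups had a highest or lowest array far from the nearest other array of its group. Chance flags about 1 in 20 groups. Among the genes that fell, the distant array was late hyper 50L for SHAS2 (level 1.57, highest) and LOX (2.96, highest), early hypo 49L for HAPLN3 (0.61, highest) and early hypo 50L for RPN1 (-0.35, lowest). Early hypo 50L was also lowest for the epithelial genes MAL2 (-3.57), RHOV (-1.61), DSG1 (0.05) and ESRP1 (-2.07), and highest for IFIH1 (0.53). Late hyper 49L was lowest for RHOV (1.31), ESRP1 (0.07), CCL28 (-0.29) and MT1A (-2.46). Late hyper 50L was highest for CCL3L1 (2.85) and lowest for FMO1 (-2.40).

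C9 had a distant highest array in both groups, early hypo 49L (-1.28) and late hypo 50L (-0.79). ADIRF was highest on late hypo 49L (3.13) and CYP19A1 on late hypo 50L (1.84). PRDX6 was lowest on early hyper 50L (-2.43) and highest among late arrays on late hypo 49L (-0.67). RPL13A (-0.12) and DNAJB1 (1.08) were highest among early arrays on early hyper 49L.

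The change from early to late scar differed between the animals, by the limma test of that difference, for CTSZ (-3.38), CTSB (-2.38), CD86 (-2.14), DDX46 (1.99) and RSF1 (1.53), each given as animal 50 minus animal 49 on the log2 scale.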

How the results depend on the processing

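Counts of features past the threshold, then higher and lower, were 11, 2 and 9 with background not capped. With slide as a fixed block they were 1073, 156 and 917. Against early arrays of side L alone they were 487, 148 and 339. With the share of detected probes as a covariate they were 753, 251 and 502. Among the 8977 features well above background on all 12 arrays they were 2146, 1183 and 963. In hyper arrays alone they were 20, 7 and 13. The last 3 of these, and hypo arrays alone (3362 features), were chosen after seeing the data. Leaving out 1 array gave 2148 to 3668 features, 781 to 1916 higher and 1336 to 2040 lower. Without the replicate block (animal left out) 3710 passed, and 121 of the 127 genes and transcripts described past the threshold kept their calls. Of those 127, 54 kept their calls in each of the 12 fits without 1 array, 2 without the background cap, 24 against side L, 31 with the covariate and 52 with slide as a fixed block.

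Some differences changed sign: THY1 from the processed signals (0.04) and the authors' table (0.04), INHBA (-0.55) and DEFB1 (-0.27) with the mean of probes, GZMB (-0.03), ESRP1 (-0.09) and MYOG (-0.04) in hyper arrays, CCL3L1 in hypo arrays (-0.03), GPX3 (-0.01) and DCT (-0.22) with the covariate, and TYRP1 with background not capped (0.12), in hypo arrays (0.10) and without late hyper 49L (0.04, the range over the 12 fits without 1 array being -0.75 to 0.04). The cause was not tested. The fit by animal called 257 features, 292 with no filter on dim probes and 337 from processed signals. Dim probes limit the late arrays most, where 31.4 to 43.3% were well above background.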
